A study of Mus musculus with 12 samples.

Results

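The clonotypes described here are TCRα chains of newly developed thymic regulatory T lymphocytes (Treg) that carry a J segment from TRAJ38 to TRAJ45, TRAJ44 left out, and an in-frame CDR3. They were chosen by the J segment named in the clonotype tables, and by a CDR3 amino acid sequence free of stop codons and frame shifts. Of the 7 segments of this stretch 6 were found, TRAJ38, TRAJ39, TRAJ40, TRAJ42, TRAJ43 and TRAJ45, and TRAJ41 was in none of the 12 tables. Together they held 1927 of the 20615 in-frame clonotypes of the series, a clonotype being a TRAV segment, a CDR3 amino acid sequence and a TRAJ segment. They accounted for 13148 of the 190549 in-frame unique molecular identifiers (UMIs), or 6.90%, where a UMI stands for 1 tagged Tcra mRNA molecule.

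The cells were sorted as CD4+CD8-Thy1.1+GFP+ thymocytes, 100000 per mouse, from 12 individual mice aged 3 weeks on the B6 background. All 12 mice carried Rag2-Gfp, which labels cells that expressed Rag2 recently, Foxp3-Thy1a, which puts Thy1.1 on cells that express Foxp3, the Kaa Tcrb transgene, and 1 null allele of Tcra (Tcra+/null). Of these mice 4 were wt for both cytokines, 4 carried Il2null (Il2°) and 4 carried Il15null (Il15°). All cells thus shared 1 transgenic TCRβ chain, and the repertoires are those of TCRα chains that pair with it. Only Tcra sequences were measured, and the sorted phenotype could not be checked against marker genes.

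The Tcra locus is assembled in CD4+CD8+ thymocytes by joining 1 of many TRAV segments to 1 of many TRAJ segments, and a first joint can be replaced by a later one that uses a more upstream TRAV and a more downstream TRAJ. The TRAJ segment encodes the C-terminal part of the CDR3 loop up to a conserved phenylalanine or tryptophan, and the bases trimmed and inserted at the joint decide which of its residues remain. IL-2 and IL-15 are cytokines that use shared receptor chains and on which thymic Treg development depends.

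In the mm10 build (GRCm38, GENCODE M21 annotation) the stretch lies on the plus strand of chromosome 14. From the 5' end, TRAJ45 is at chr14:54172828-54172890, TRAJ43 at chr14:54174742-54174798, TRAJ42 at chr14:54175773-54175836, TRAJ41 at chr14:54176271-54176325, TRAJ40 at chr14:54177921-54177981, TRAJ39 at chr14:54179962-54180024 and TRAJ38 at chr14:54180574-54180635. Each is annotated as a TR_J_gene, a single coding J segment. The germline sequences are shown because they set what the CDR3s of each segment have in common, with capitals for the bases that can end up in a CDR3.
TRAJ45: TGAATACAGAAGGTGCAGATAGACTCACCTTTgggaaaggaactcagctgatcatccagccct
TRAJ43: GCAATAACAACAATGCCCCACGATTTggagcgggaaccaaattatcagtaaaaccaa
TRAJ42: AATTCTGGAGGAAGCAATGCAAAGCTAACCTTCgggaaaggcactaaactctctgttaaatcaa
TRAJ40: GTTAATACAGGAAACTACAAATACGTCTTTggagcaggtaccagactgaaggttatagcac
TRAJ39: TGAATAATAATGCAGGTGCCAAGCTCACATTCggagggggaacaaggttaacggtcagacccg
TRAJ38: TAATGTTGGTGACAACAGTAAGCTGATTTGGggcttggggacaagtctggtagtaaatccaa
TRAJ43 had the shortest part for the CDR3, 26 bases, against 30 to 33 bases in the others. TRAJ38 ends its CDR3 in tryptophan and the other 5 segments end it in phenylalanine. TRAJ41, whose germline sequence is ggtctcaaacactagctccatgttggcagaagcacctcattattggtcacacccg, holds no phenylalanine or tryptophan followed by glycine, any residue and glycine in any of its 3 forward frames, and 45 of the 60 annotated TRAJ sequences do.

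The leading clonotype of each segment, ranked by its percentage of in-frame UMIs averaged over 12 libraries, is given by its commonest nucleotide sequence, with the bases that the authors' alignment assigned to the J segment in capitals.
TRAV4D-3 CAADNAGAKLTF with TRAJ39: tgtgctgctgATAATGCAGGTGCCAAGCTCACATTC
TRAV12-3 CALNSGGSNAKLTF with TRAJ42: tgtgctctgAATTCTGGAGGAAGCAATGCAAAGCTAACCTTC
TRAV6-4 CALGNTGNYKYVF with TRAJ40: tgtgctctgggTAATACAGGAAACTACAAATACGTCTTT
TRAV4D-4 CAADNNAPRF with TRAJ43: tgtgctgctgACAACAATGCCCCACGATTT
TRAV4D-4 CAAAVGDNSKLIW with TRAJ38: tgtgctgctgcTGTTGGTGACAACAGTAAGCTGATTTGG
TRAV4D-3 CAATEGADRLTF with TRAJ45: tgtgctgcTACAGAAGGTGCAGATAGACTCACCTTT
In the TRAJ42 clonotype all 33 CDR3 bases of the germline segment remained, and in the TRAJ39 clonotype 26 of 32 did, both without an inserted base. The alignment counted 3 inserted bases in the TRAJ38 clonotype, 2 in the TRAJ43 clonotype, 1 in the TRAJ40 clonotype and 0 in the TRAJ45 clonotype.

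The 12 libraries held between 7625 and 25980 UMIs, of which 94.5% to 96.6% were in-frame, and between 515 and 1700 in-frame UMIs of the 6 segments. Shares are percentages of the in-frame UMIs of a library, and a share at the limit of 3 UMIs corresponds to between 0.0121% and 0.0411%. Out-of-frame rows are few for these segments, 286 UMIs or 2.13% of their total against 4.53% for the other segments, but TRAJ45 had 73 of them beside 524 in-frame UMIs.

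The stretch as a whole took a similar share in the 3 genotypes. Its combined share was 6.62%, 7.43%, 7.15% and 6.74% in the 4 wt mice. In Il2° mice it was 7.54%, 6.60%, 7.42% and 7.06%, and in Il15° mice 6.78%, 6.55%, 6.42% and 6.55%. The Il15° values were thus close together at the lower end, overlapping with wt and Il2°. The means were 6.98% ± 0.374 in wt, 7.16% ± 0.421 in Il2° and 6.57% ± 0.148 in Il15° mice (SD, n = 4 each). The exact 2-sided Mann-Whitney test, which cannot go below 0.0286 for 4 against 4 mice, returned p = 0.886 between Il2° and wt, p = 0.114 between Il15° and wt and p = 0.0571 between Il15° and Il2°. Without the most abundant clonotype of the stretch, TRAV4D-3 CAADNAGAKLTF with TRAJ39, the difference between Il15° and Il2° went from -0.58 to -0.80 percentage points and its exact Mann-Whitney p reached 0.0286, and with each clonotype counted once it was -0.06 percentage points (p = 0.686, exact). The neighbouring stretches were on either side of this level, TRAJ30 to TRAJ37 with 24.6% ± 2.29 and TRAJ46 to TRAJ58 without TRAJ47 with 4.19% ± 0.403 of the wt in-frame UMIs (SD, n = 4).

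The 6 segments ranged in mean level from 2.82% to 0.276%, and most neighbours in their order kept it in all mice. TRAJ39 was the most frequent with a mean over the 12 libraries of 2.82% ± 0.200, place 13 among the 43 segments with in-frame UMIs. TRAJ42 followed with 1.52% ± 0.201, TRAJ40 with 1.19% ± 0.193, TRAJ43 with 0.734% ± 0.0805, TRAJ38 with 0.360% ± 0.107 and TRAJ45 with 0.276% ± 0.0828 (SD, n = 12), the last at place 37. Of the 5 neighbours in this order TRAJ42 was above TRAJ40 in 11 of 12 mice and TRAJ38 above TRAJ45 in 9 of 12, and the other 3 pairs had the same order in 12 of 12. By the exact sign-flip test over mice the difference between TRAJ38 and TRAJ45, 0.0830 percentage points, had an adjusted p of 0.0239 over the 5 pairs, and those of the other pairs were 0.00183 or lower. The pairs and their order were taken from the same shares, so these p values give no independent support for the order. Segment levels did not follow position along the chromosome, since TRAJ38 and TRAJ39 are neighbours with the second lowest and the highest level.

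**Figure D1:**
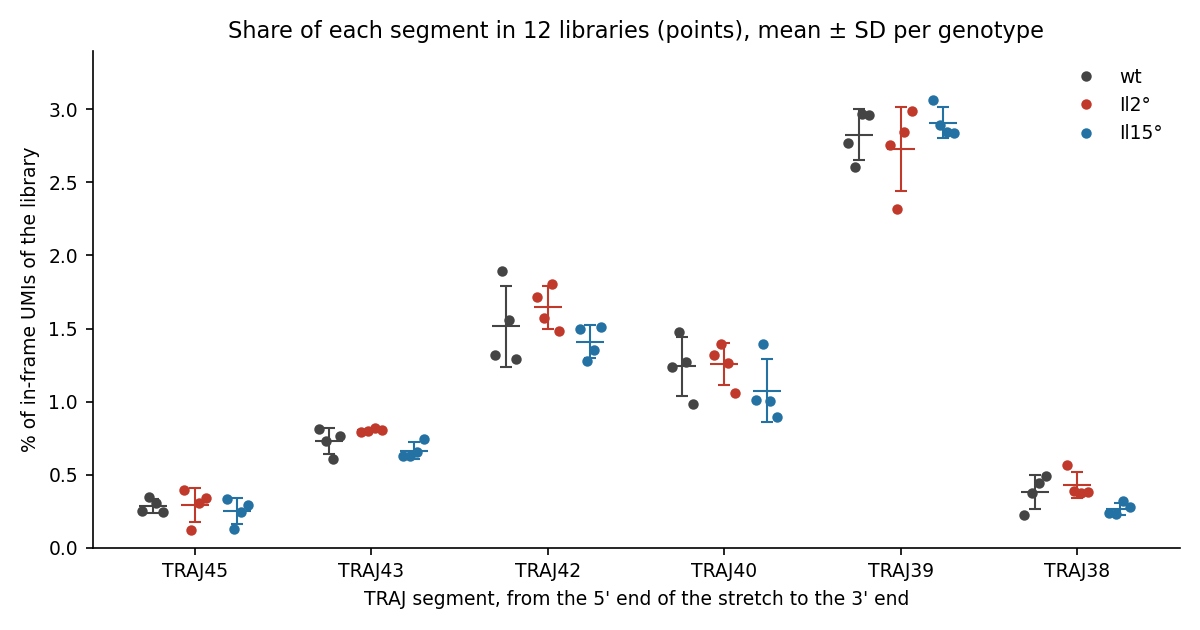
Percentage of in-frame UMIs of each of the 6 segments (vertical axis) in 12 libraries (points), with the mean ± SD of 4 libraries per genotype and the segments in their order along the locus (horizontal axis). TRAJ39 lies between 2.32% and 3.06% in all libraries and TRAJ45 between 0.125% and 0.392%, and the genotypes overlap except TRAJ38 and TRAJ43 between Il2° and Il15°.

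To find out whether single segments depended on either cytokine, the in-frame UMIs of the 40 TRAJ segments that reached 10 UMIs in 4 or more libraries were compared with edgeR. None of the 6 segments passed an adjusted p of 0.05 in any comparison. Over all segments edgeR called 5 of 40 (12.5%) for Il2° against wt, 2 of 40 (5%) for Il15° against wt and 4 of 40 (10%) for Il15° against Il2°. At an unadjusted p under 0.05 there were 0, 0 and 1 of the 6 segments, and DESeq2 called 0 of them as well. Their median log2 fold change was 0.07 for Il2° against wt, -0.16 for Il15° against wt and -0.23 for Il15° against Il2°, beside medians of 0.03, -0.06 and -0.06 over all 40.

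TRAJ38 was the segment with the lowest p among the 6. It took 0.222%, 0.376%, 0.441% and 0.491% of the in-frame UMIs in wt mice, and 0.565%, 0.391%, 0.378% and 0.384% in Il2° mice. In Il15° mice it took 0.237%, 0.229%, 0.319% and 0.281%. All Il15° mice were below all Il2° mice, while wt mice covered nearly the range of both. The log2 fold change of Il15° against Il2° was -0.70 ± 0.31 (SE), with an edgeR p of 0.0303 and an adjusted p of 0.214. Il15° against wt gave -0.51 ± 0.31 (adjusted p = 0.627, edgeR) and Il2° against wt 0.19 ± 0.30 (adjusted p = 0.755, edgeR). With 28 to 86 TRAJ38 UMIs per library these differences were not resolved.

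TRAJ43 also separated Il15° from Il2° mice without overlap, with 0.793%, 0.800%, 0.817% and 0.809% in Il2° against 0.631%, 0.627%, 0.658% and 0.746% in Il15° mice. The 4 wt mice, with 0.814%, 0.734%, 0.609% and 0.766%, overlapped with both. Its log2 fold change was -0.27 ± 0.20 for Il15° against Il2° (adjusted p = 0.401, edgeR). Between Il15° and Il2°, 2 of the 6 segments had ranges that did not overlap, beside 7 of all 40 (17.5%). For Il2° against wt and Il15° against wt 0 of the 6 did, beside 10% and 7.5% of all 40.

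TRAJ39, the most frequent segment, overlapped between all genotypes. It took 2.77%, 2.60%, 2.97% and 2.96% in wt, 2.75%, 2.32%, 2.84% and 2.99% in Il2° and 3.06%, 2.89%, 2.84% and 2.83% in Il15° mice. Its log2 fold changes were -0.05 ± 0.11 for Il2° and 0.04 ± 0.11 for Il15° against wt (SE), with 95% intervals from -0.27 to 0.16 and from -0.17 to 0.25. TRAJ42 took 1.32%, 1.89%, 1.56% and 1.29% in wt, 1.72%, 1.57%, 1.81% and 1.48% in Il2° and 1.49%, 1.28%, 1.35% and 1.51% in Il15° mice, and the groups overlapped. TRAJ40 ranged from 0.982% to 1.48% in wt, from 1.06% to 1.40% in Il2° and from 0.892% to 1.39% in Il15° mice. TRAJ45, with 17 to 79 UMIs per library, ranged from 0.245% to 0.345% in wt, from 0.125% to 0.392% in Il2° and from 0.130% to 0.336% in Il15° mice. Its 95% interval for Il2° against wt, from -0.71 to 0.67 on the log2 scale, covered changes in either direction.

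**Figure D2:**
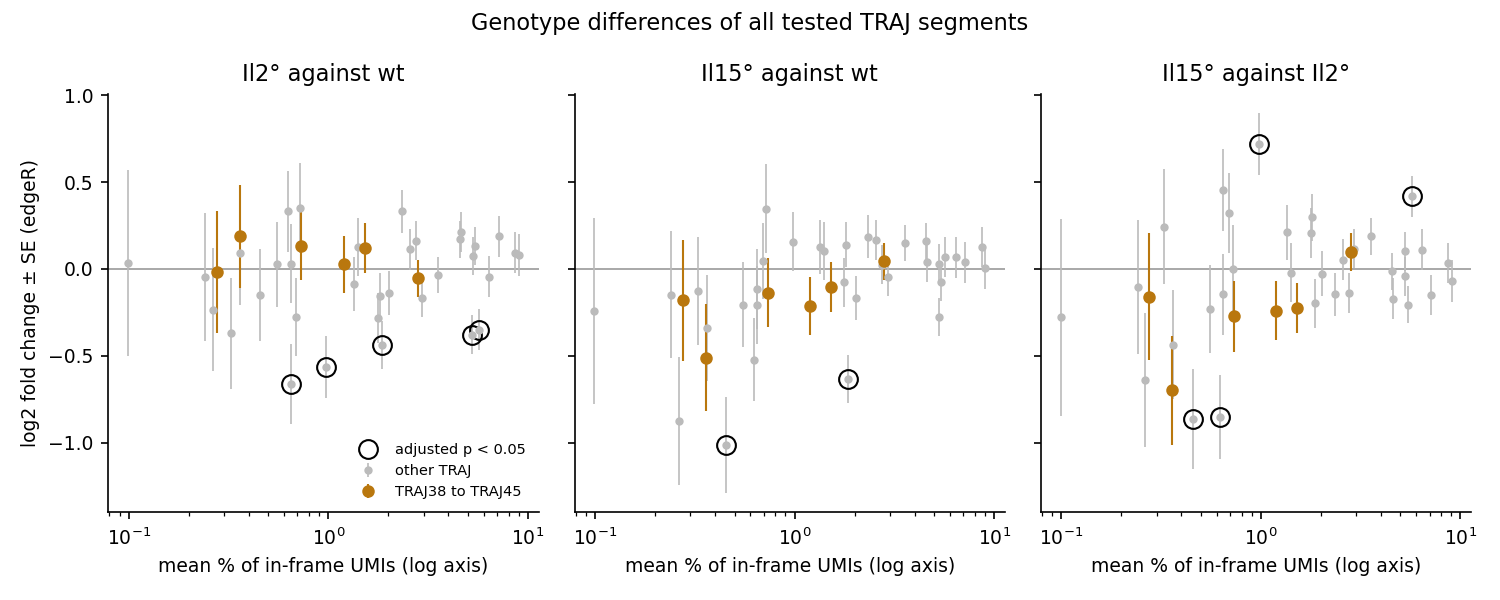
Log2 fold change ± SE (vertical axis, edgeR) against the mean percentage of in-frame UMIs (horizontal log axis) for 40 TRAJ segments in the 3 comparisons, the 6 segments in brown and circles for adjusted p under 0.05. The 6 segments lie between -0.70 and 0.19 and carry no circle, and the circled segments are 5, 2 and 4 others.

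Across the 12 libraries the segment whose share moved most like that of TRAJ42 was TRAJ56 (Spearman's rho = 0.874), and the second was TRAJ52 (rho = 0.622). TRAJ38 was most like TRAJ31 (rho = 0.755) and TRAJ57 (rho = 0.552). TRAJ39 was most like TRAJ23 (rho = 0.692) and TRAJ22 (rho = 0.559), TRAJ40 like TRAJ21 (rho = 0.510) and TRAJ52 (rho = 0.483). TRAJ43 was most like TRAJ15 and TRAJ9 (rho = 0.636 each), and TRAJ45 like TRAJ42 (rho = 0.566) and TRAJ28 (rho = 0.559). Each is the highest or second highest of 39 correlations, and shares of 1 library are fractions of a common total.

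The segments differed in their TRAV partners. TRAV segments with near-identical copies in the duplicated part of the locus were merged (TRAV4-3, TRAV4D-3 and TRAV4N-3, for example). A chain may be assigned to any of such copies, and how often this happened was not tested. TRAV4-3 was the leading partner of TRAJ45, with 59.4% of its in-frame UMIs, of TRAJ38 with 46.7% and of TRAJ39 with 43.1% (means of 12 libraries), whereas the rest of the same libraries had 24.4%, 24.4% and 23.9%. TRAV4-3 made up 24.7% of TRAJ42 and 15.02% of TRAJ43. In TRAJ40, whose UMIs were spread over 42 TRAV segments, TRAV4-3 took 4.50% against 24.7% in the rest, lower in 12 of 12 mice. The 3 commonest TRAV of TRAJ40, TRAV12-3 with 8.06%, TRAV3-3 with 8.01% and TRAV7-3 with 7.96%, together held 24.0% of its UMIs, and the corresponding figure was between 55.9% and 79.1% for the other 5 segments.

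These differences were tested for each combination of TRAV and TRAJ that reached 5 UMIs in 4 or more of the 12 libraries, as the TRAV share within the segment minus that in the rest of the same library. The exact sign-flip test over the 12 mice, whose smallest p is 0.000488, called 33 of the 56 combinations of the 6 segments (58.9%) at an adjusted p under 0.05, beside 357 of all 562 combinations (63.5%). The share of combinations called was thus near that of the whole repertoire. The test was chosen after the values were seen. The excess of TRAV4-3 was 35.0 percentage points in TRAJ45 (higher in 11 of 12 mice), 22.4 in TRAJ38 and 19.2 in TRAJ39 (12 of 12 each), with adjusted p values of 0.00245, 0.00149 and 0.00149 by the exact test, and in TRAJ40 TRAV4-3 was 20.2 percentage points lower (adjusted p = 0.00149, exact).

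TRAJ43 was led by TRAV4-4, which took 27.2% of its UMIs against 6.59% in the rest. TRAV9-4, a segment with 0.174% of the rest, took 13.7% of TRAJ43 (both TRAV higher in 12 of 12 mice, adjusted p = 0.00149, exact sign-flip). Single clonotypes made up much of both. TRAV4D-4 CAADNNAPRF held 247 of the 381 TRAV4-4 UMIs of TRAJ43, and TRAV9D-4 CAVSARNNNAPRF held 197 of its 199 TRAV9-4 UMIs. TRAV4-3 was 9.51 percentage points lower in TRAJ43 than in the rest (adjusted p = 0.00245, exact). TRAJ42 was rich in TRAV12-3, with 23.5% against 7.49%, in TRAV3-3, with 10.7% against 4.16%, and in TRAV19, with 10.3% against 0.142% (each higher in 12 of 12 mice, adjusted p = 0.00149, exact). With each clonotype counted once these excesses kept their direction and passed, but fell from 20.6 to 7.26 percentage points for TRAV4-4 and from 13.5 to 3.85 for TRAV9-4 in TRAJ43, and from 16.1 to 9.40 for TRAV12-3 and from 10.2 to 2.11 for TRAV19 in TRAJ42. The deficit of TRAV4-3 in TRAJ43 was then 3.93 percentage points (adjusted p = 0.0463, exact), and TRAV4-3 in TRAJ42 was 5.19 above the rest (adjusted p = 0.0159, exact) where it differed by 0.207 by UMIs (adjusted p = 0.929, exact). TRAV19 was not among the 3 leading partners of TRAJ42 and is named because its values stood out when seen. TRAV3-3 was also above the rest in TRAJ39, with 11.2% against 4.06% (11 of 12 mice, adjusted p = 0.00444, exact), and in TRAJ40 (12 of 12, adjusted p = 0.00149, exact). TRAV14-1, the third partner of TRAJ39, took 6.43% against 3.43% (10 of 12 mice, adjusted p = 0.00538, exact). TRAV4-4 in TRAJ38, with 13.1% against 6.71%, did not pass (adjusted p = 0.0506, exact) but did with each clonotype counted once (adjusted p = 0.0222, exact). Neither weighting called TRAV3-3 in TRAJ45 with 10.2% against 4.24% (adjusted p = 0.0729, exact).

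**Figure D3:**
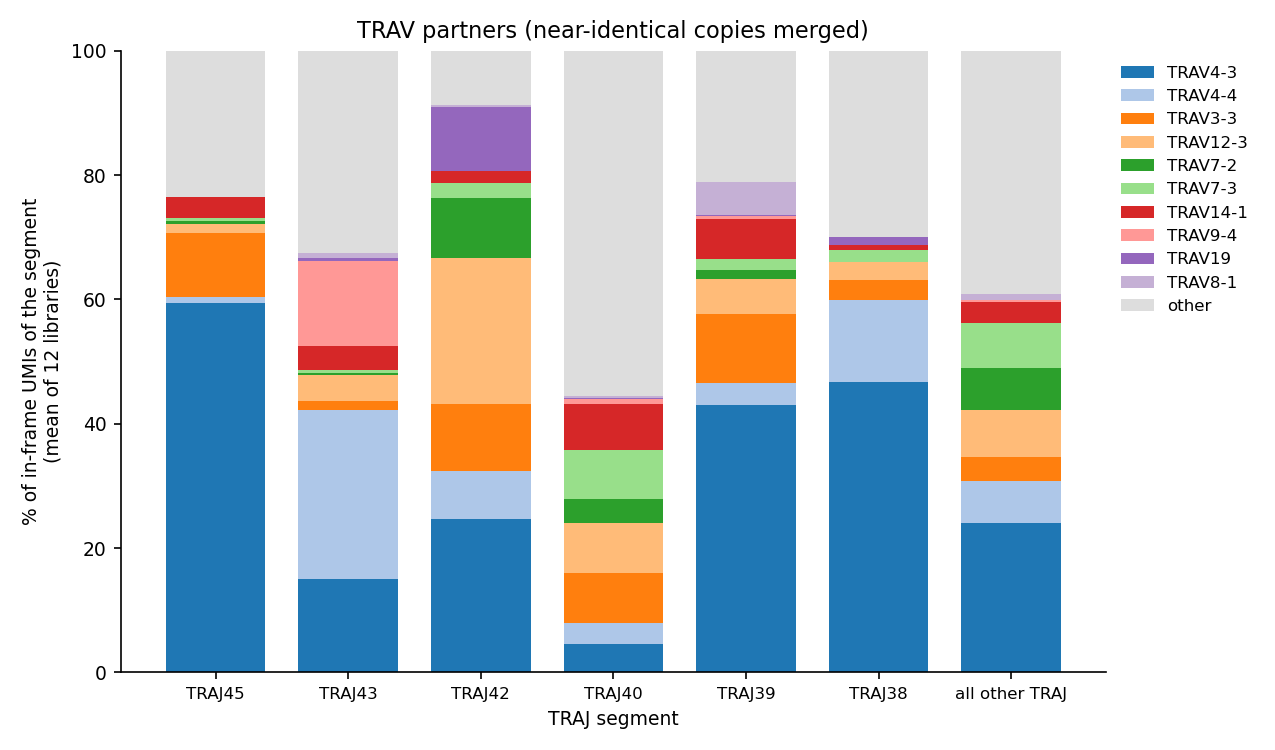
Mean percentage over 12 libraries of the in-frame UMIs of each segment (vertical axis) that carry each of 10 TRAV segments or any other (colours), for the 6 segments and for all other TRAJ together. TRAV4-3 runs from 4.50% in TRAJ40 to 59.4% in TRAJ45 beside 24.0% in all other TRAJ, and 55.5% of TRAJ40 falls outside the 10 TRAV shown.

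Between genotypes, edgeR on the UMIs of the 562 combinations called 0 of the 56 of these segments in each comparison. Over all combinations it called 3 (0.534%) for Il2° against wt, 0 (0%) for Il15° against wt and 11 (1.96%) for Il15° against Il2°. At an unadjusted p under 0.05 there were 7, 2 and 7 of the 56, beside 51, 43 and 79 of the 562. DESeq2 called 0, 1 and 0 of the 56, the 1 being TRAV7-2 with TRAJ40.

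TRAV7-2 with TRAJ40 had 15, 14, 13 and 17 UMIs in wt mice, 5, 11, 5 and 6 in Il2° mice and 0, 0, 1 and 2 in Il15° mice. Every Il15° mouse was below every mouse of the other genotypes, though such separations were not counted over all combinations. The share of this combination was 14.4-fold lower in the pooled Il15° than in the pooled wt libraries, 3 of 58501 against 59 of 79831 UMIs. The exact 95% interval, from 4.70 to 71.9, covers counting error only. The fitted log2 fold change of Il15° against wt was -3.71 ± 1.02 with an adjusted p of 0.0690 in edgeR and 0.0199 in DESeq2, so that the call depended on the tool. Most of these UMIs came from 1 of the 10 clonotypes of the combination, TRAV7-2 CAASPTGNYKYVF with TRAJ40, which is the second most frequent clonotype of TRAJ40 and had 12, 7, 9 and 9 UMIs in wt, 1, 6, 5 and 6 in Il2° and 0, 0, 0 and 1 in Il15° mice. Fitted alone, this clonotype gave a log2 fold change of -4.39 ± 1.25 for Il15° against wt (adjusted p = 0.354, edgeR).

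Among the leading partners, TRAV4-3 with TRAJ39 stood lowest in Il2° mice. It made up 49.6%, 45.1%, 53.1% and 47.2% of the TRAJ39 UMIs in wt, 30.2%, 28.9%, 39.6% and 37.6% in Il2° and 43.9%, 33.3%, 61.6% and 46.9% in Il15° mice. All 4 Il2° mice were below all 4 wt mice. Separations of this kind were not counted over all combinations, so this one cannot be read as unusual. By edgeR this combination and those of TRAJ40 below were compared as shares of all in-frame UMIs of a library, not of the segment. On that scale TRAV4-3 with TRAJ39 had means of 1.38% in wt and 0.938% in Il2° mice. Its log2 fold change for Il2° against wt was -0.56 ± 0.23, with an adjusted p of 0.301 in edgeR. TRAV12-3 took 10.4%, 9.76%, 10.7% and 6.71% of TRAJ40 in wt, 7.14%, 2.03%, 3.26% and 2.60% in Il2° and 9.14%, 6.04%, 16.3% and 12.6% in Il15° mice, with a log2 fold change for Il2° against wt of -1.29 ± 0.61 (adjusted p = 0.497, edgeR). TRAV7-3, also a partner of TRAJ40, took a mean of 8.10% ± 1.69 in wt, 11.3% ± 2.62 in Il2° and 4.51% ± 3.98 in Il15° mice (SD, n = 4), and its adjusted p was 0.236 or higher in edgeR. TRAV3-3 with TRAJ38 had 17 UMIs of 291 in wt, 11 of 224 in Il2° and 0 of 154 in Il15° mice, a count that allows a share of up to 1.95%.

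A combination outside the leading partners, TRAV14-3 with TRAJ39, had the lowest p of the 56 for Il2° against wt. It had 19, 19, 5 and 12 UMIs in wt and 15, 6, 1 and 20 in Il15° mice, but 0, 1, 0 and 2 in Il2° mice, with an adjusted p of 0.145 in edgeR. TRAV7-2 with TRAJ42 was seen more often in Il2° mice, with 34, 54, 24 and 11 UMIs against 27, 35, 8 and 8 in wt mice, and a log2 fold change of 1.28 ± 0.48 (adjusted p = 0.250, edgeR). Neither combination passed the test, and both, like the clonotype, were named after their values were seen.

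Single clonotypes were frequent in a few cases. Of the 1927 clonotypes 1065 (55.3%) were found in 1 library, beside 52.3% of the clonotypes of the other segments, and 10 (0.519%) were found in all 12, beside 164 (0.878%). Of these 10, 5 used TRAJ42, 3 used TRAJ39 and 2 used TRAJ43. TRAJ42, with fewer clonotypes (331) than TRAJ39 (652) and TRAJ40 (485), thus held 5 of the 10 clonotypes shared by all mice. Clonotypes found in all 4 mice of a genotype numbered 48 in wt, 28 in Il2° and 27 in Il15° mice, beside 618, 423 and 403 in the whole series. These were 4.81%, 2.99% and 4.13% of the clonotypes of the 6 segments in that genotype and 5.87%, 4.21% and 5.74% of those of the other segments, so that the counts were lower in both cytokine-deficient genotypes over the whole repertoire too. Of the 48 in wt, 32 were absent from at least 1 Il2° mouse and 34 from at least 1 Il15° mouse, but 4 and 9 were absent from all mice of that genotype. The same counts were not made for the other segments, so they cannot be read as particular to these 6. These counts also move with depth, which was highest in 2 of the wt libraries. Clonotype counts given here kept TRAV copies apart, so a chain assigned to different copies would count as different clonotypes.

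The most frequent clonotype of the stretch, TRAV4D-3 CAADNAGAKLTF with TRAJ39, was in all 12 libraries and made up 10.8% of the TRAJ39 UMIs. It took 0.343%, 0.227%, 0.259% and 0.275% of the in-frame UMIs in wt, 0.118%, 0.182%, 0.282% and 0.261% in Il2° and 0.417%, 0.260%, 0.725% and 0.354% in Il15° mice. The highest 3 values were all in Il15° mice, but the groups overlapped. Its log2 fold change for Il15° against Il2° was 0.99 ± 0.45 with an adjusted p of 0.504 in edgeR. The 2 other leading TRAJ39 clonotypes, TRAV8-1 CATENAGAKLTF and TRAV3-3 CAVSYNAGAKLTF, had means over the 12 libraries of 0.110% and 0.0767% and ended like the first in NAGAKLTF.

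The most frequent TRAJ42 clonotype, TRAV12-3 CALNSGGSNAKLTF, had means of 0.169% ± 0.0406 in wt, 0.141% ± 0.0855 in Il2° and 0.222% ± 0.0584 in Il15° mice, and 11 nucleotide sequences. A further TRAJ42 clonotype, with TRAV4D-3, had a mean of 0.0931% over the 12 libraries.

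TRAJ43 was the segment most dominated by single clonotypes. TRAV4D-4 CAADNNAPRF made up 17.6% and TRAV9D-4 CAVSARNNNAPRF 14.0% of its UMIs, both found in all 12 libraries. The first took 0.125%, 0.0961%, 0.175% and 0.192% in wt, 0.181%, 0.0908%, 0.0824% and 0.302% in Il2° and 0.133%, 0.0535%, 0.0580% and 0.146% in Il15° mice, with overlap between all groups. The second took a mean of 0.0989% ± 0.0191 in wt, 0.147% ± 0.101 in Il2° and 0.0572% ± 0.0312 in Il15° mice (adjusted p of 0.518 for Il15° against Il2°, edgeR). The clonotypes of the rarer segments were near the detection limit. TRAV4D-4 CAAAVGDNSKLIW and TRAV4D-3 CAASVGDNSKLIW with TRAJ38 had 66 and 68 UMIs in 10 and 8 libraries, TRAV6-4 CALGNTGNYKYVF with TRAJ40 had 97 UMIs in 10 libraries, and TRAV4D-3 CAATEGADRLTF and TRAV4D-3 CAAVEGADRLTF with TRAJ45 had 59 and 41 UMIs in 10 and 8 libraries.

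A clonotype entered the edgeR test where 4 or more of the 8 compared libraries held 5 UMIs of it, which 26, 27 and 20 clonotypes of the 6 segments passed for Il2° against wt, Il15° against wt and Il15° against Il2°. It called 0 of them in each comparison, beside 0 of 464 (0%), 0 of 478 (0%) and 1 of 362 (0.276%) of all clonotypes tested, and DESeq2 called 0 of them as well. At an unadjusted p under 0.05 there were 3, 4 and 2, beside 43, 20 and 34 of all tested. Most clonotypes of the stretch were too rare to be tested at this depth.

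**Figure D4:**
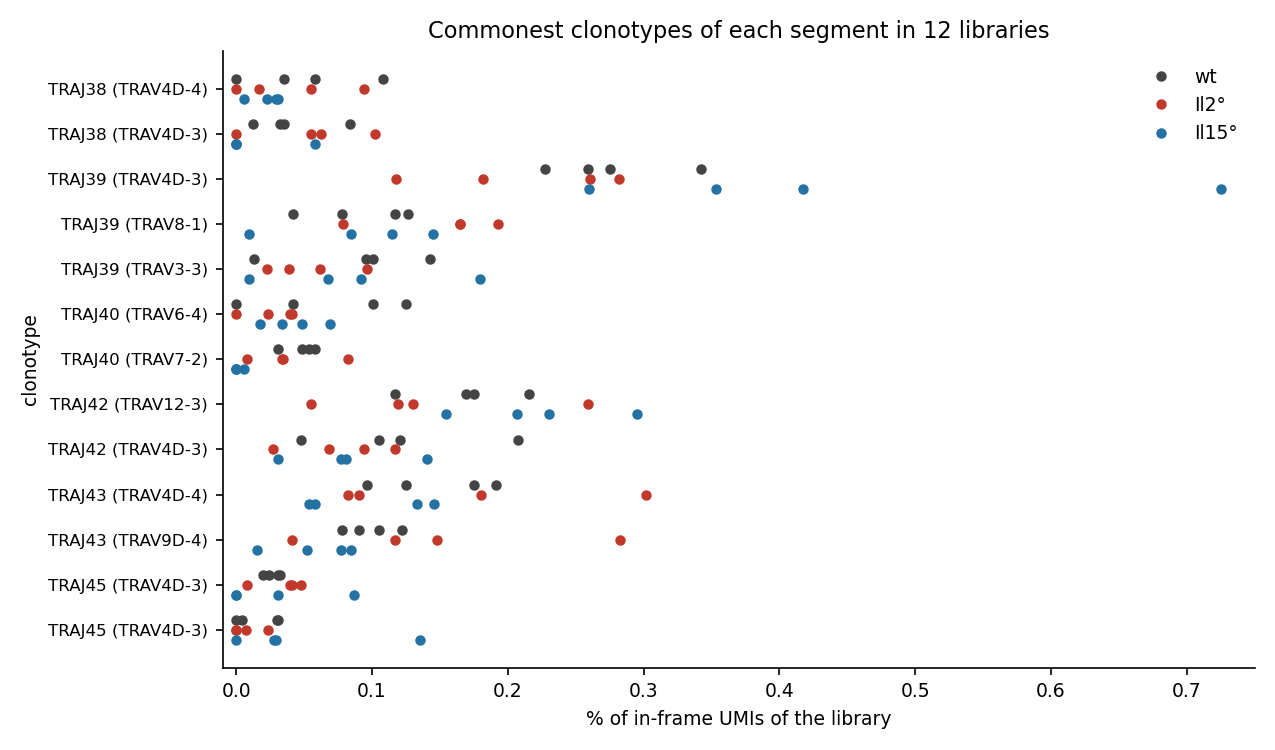
Percentage of in-frame UMIs (horizontal axis) of 2 or 3 of the most frequent clonotypes of each segment (rows) in the libraries of the 3 genotypes (coloured points). The first TRAJ39 clonotype reaches 0.725% in an Il15° mouse, and the second TRAJ40 clonotype is at 0 in 3 of 4 Il15° mice and at 0.00561% in the other.

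The CDR3s of the segments differed in length and composition from the rest of the same libraries. These features were compared for segments with at least 30 in-frame UMIs in every library, which TRAJ39, TRAJ40, TRAJ42 and TRAJ43 reached. The exact sign-flip test over 12 mice called 16 of their 24 features (66.7%) at an adjusted p under 0.05, beside 144 of 192 (75%) over all 32 segments tested. TRAJ43 had the shortest CDR3s of the 32, with a mean of 11.6 amino acids against 13.1 in the rest, shorter in 12 of 12 mice (adjusted p = 0.0012, exact). Its lengths fell into 2 groups, with 30.6% of its UMIs at 10 residues and 34.6% at 13 residues, the lengths of its 2 leading clonotypes. TRAJ42 CDR3s averaged 13.5 residues and TRAJ40 CDR3s 13.4, both longer than the rest (adjusted p = 0.0012 and 0.0045, exact), and TRAJ39 CDR3s, with a mean of 13.1, did not pass (adjusted p = 0.626, exact). With each clonotype counted once, TRAJ39 CDR3s were 0.173 residues longer than the rest, in 10 of 12 mice (adjusted p = 0.00576, exact).

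The joints differed as well. The number of bases between the V and the J part was 3.19 in TRAJ40, 2.62 in TRAJ43 and 2.35 in TRAJ39, each above the 2.04 to 2.05 of the rest (adjusted p = 0.0012, 0.0012 and 0.0037, exact). TRAJ42 had 1.61 against 2.06 in the rest, fewer in 12 of 12 mice (adjusted p = 0.0012, exact), and 42.4% ± 6.90 of its UMIs had no inserted base, compared with 14.0% ± 4.09 in TRAJ40 (SD, n = 12). The TRAV16 to TRAV21 segments, which lie nearest to the TRAJ segments, took 12.1% of TRAJ42 against 4.48% of the rest (higher in 11 of 12 mice, adjusted p = 0.0021, exact), most of it TRAV19, and 1.09% of TRAJ39 against 4.70% (lower in 12 of 12, adjusted p = 0.0012, exact). Among the residues encoded at the joint, charged residues (D, E, K, R) were commoner than in the rest in TRAJ39, with 37.2% against 32.0% (adjusted p = 0.0012, exact), and in TRAJ40, with 36.5% against 32.1% (adjusted p = 0.0172, exact). Hydrophobic residues (A, F, I, L, M, V, W) were rarer in TRAJ40, with 14.7% against 18.8%, in TRAJ42, with 13.8% against 18.8%, and in TRAJ39, with 17.2% against 18.8% (adjusted p = 0.0029, 0.0176 and 0.0409, exact). Glycine was commoner in TRAJ40 and TRAJ42, with 17.8% and 19.8% against 14.4% and 14.3% (adjusted p = 0.0051 and 0.0037, exact). When each clonotype was counted once, the differences in hydrophobic residues of TRAJ39 and TRAJ42 and in glycine of TRAJ42 no longer passed, and glycine of TRAJ42 turned its direction (12.9% against 14.6%). Differences that passed only in this count were charged residues of TRAJ42, with 34.4% against 29.8% (adjusted p = 0.0179, exact), and hydrophobic residues of TRAJ43, with 15.7% against 20.6% (adjusted p = 0.0109, exact). Glycine of TRAJ39, with 15.9% against 14.6%, did so too (adjusted p = 0.0362, exact).

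**Figure D5:**
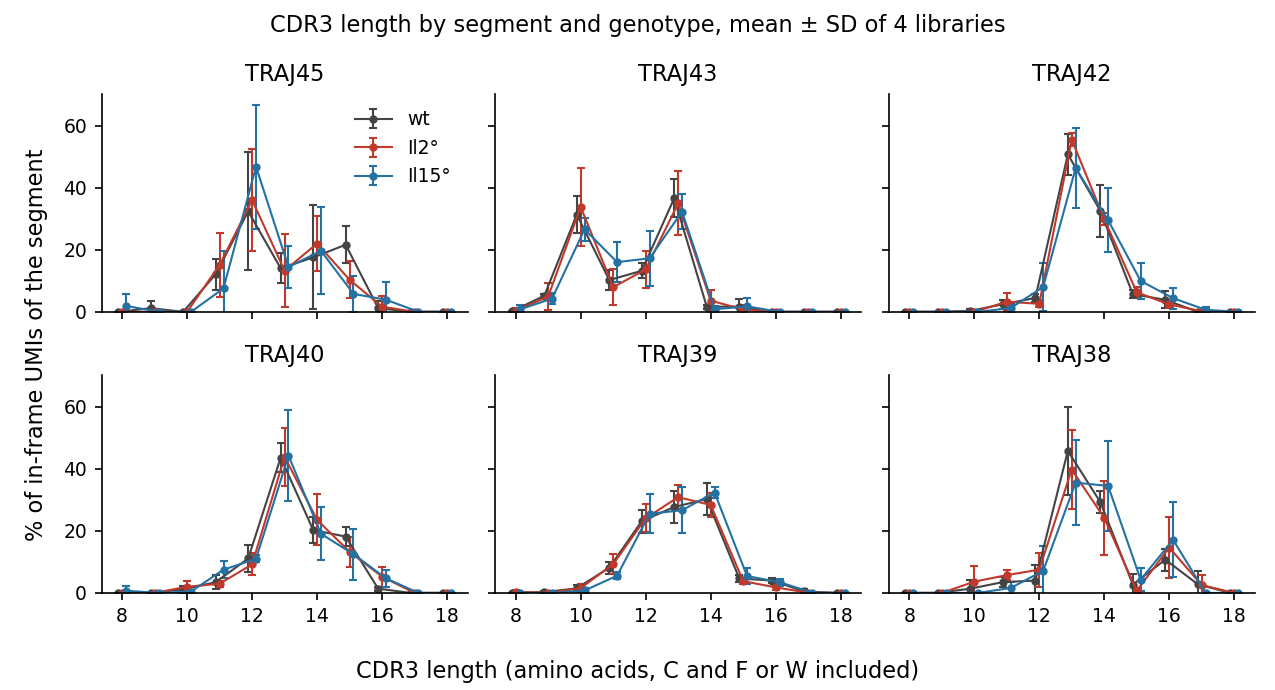
Percentage of in-frame UMIs of each segment (vertical axis) by CDR3 length in amino acids (horizontal axis), mean ± SD of 4 libraries per genotype (colours). TRAJ43 has peaks at 10 and 13 residues with means over 12 libraries of 30.6% and 34.6%, TRAJ42 a single peak at 13 residues with 50.8%, and the curves of the genotypes overlap.

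Between genotypes, limma called 0 of the 24 features of these segments in each comparison, beside 0 of 192 (0%) over all segments in each. At an unadjusted p under 0.05 there were 0 of 24 for Il2° against wt, 2 for Il15° against wt and 4 for Il15° against Il2°, beside 18, 14 and 30 of 192. TRAJ42 features were among them. In TRAJ42, TRAV16 to TRAV21 made up 12.6% ± 2.09 in wt mice, 16.6% ± 8.20 in Il2° mice and 7.03% ± 2.42 in Il15° mice (SD, n = 4), with all Il15° mice below all wt mice. Charged residues at the TRAJ42 joint were 41.0% ± 4.42, 36.8% ± 3.80 and 31.0% ± 6.44, and hydrophobic residues 10.5% ± 4.87, 11.9% ± 2.35 and 19.1% ± 4.76, in the same order. The wt and Il15° mice overlapped in both residue classes. These features were read from the same UMIs and are not independent of each other. The adjusted p of the differences between Il15° and wt was 0.324 for both residue classes and 0.596 for the TRAV16 to TRAV21 share (limma). Between Il15° and Il2°, whose ranges overlapped, that of the TRAV16 to TRAV21 share was 0.184 (limma). The lowest p for Il15° against Il2° was that of hydrophobic residues at the TRAJ43 joint, which were 17.4% ± 4.13 in wt mice, 21.8% ± 6.01 in Il2° mice and 12.4% ± 3.22 in Il15° mice (adjusted p = 0.155, limma). All Il15° mice were below all Il2° mice. Separations of this kind were not counted over all features, so they cannot be read as particular to these segments. The mean CDR3 length of TRAJ39 came to 13.1 ± 0.142 residues in wt mice, 12.9 ± 0.141 in Il2° mice and 13.2 ± 0.0990 in Il15° mice (adjusted p of 0.189 for Il15° against Il2°, limma).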

How the data were processed

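TCRα repertoires of newly developed Treg from 12 mice were measured by sequencing Tcra mRNA. In the authors' processing pRESTO removed low-quality reads and merged those of 1 UMI into a consensus, UMIs read once were dropped, and MiXCR aligned and assembled the clones (mm10 in the submitters' processing notes). The authors deposited for each mouse the UMI count of each sequence, without normalization, and its fraction of the library, with positions of the V end and J start. The counts were used, and percentages were computed from them. Depth was 7625 to 25980 UMIs per library, and since a cell can give several UMIs, intervals and limits cover counting error only.

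The segments and lists were chosen with earlier results of these data known. Named were the 6 segments, for each the 3 TRAV with the highest mean share, the 2 most frequent clonotypes (3 for TRAJ39 and TRAJ42) and the 2 most similar TRAJ, and up to 3 called combinations and clonotypes per comparison, of which there were none. Other names were chosen after their values were seen. A clonotype that the rule named is not reported here. Groups came from the labels, which name no litter or batch. The paper describes the wt mice as littermates, but which mice shared a litter is not given, so litter could not be taken into account. The quasi-likelihood test of edgeR served for segments and combinations over 12 libraries with in-frame totals as library sizes, and for clonotypes over 8 libraries after TMM normalization, limma served for CDR3 features, with Benjamini-Hochberg adjustment over all features tested. The combined share was compared with the 2-sided Mann-Whitney test, which the paper names, here in its exact form. Segments were compared with the rest of their library by an exact 2-sided sign-flip test over mice. Joint residues run from CDR3 position 4 to the last codon begun before the J start. The recorded J start lay before the first germline base for 6.37% of the UMIs of these segments, which lowers their inserted bases, and 27 UMIs without a valid position were left out. Both were left out of the shares without an inserted base. Positions and germline sequences came from GENCODE M21 by name. The tests ran in edgeR 4.0.16, limma 3.58.1 and DESeq2 1.42.0 under R 4.3.3, and in scipy 1.17.1, numpy 2.4.6 and pandas 2.3.3 under Python 3.11.15, and were checked on simulated data. Alternatives covered the normalization, the test, the filters, the weighting by UMIs, the TRAV names, a replicate block and leaving out each mouse.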

Additional observations from a re-analysis of the deposited data

Results flagged for a closer look

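Of 225 groups of 4 libraries checked for a library far from the other 3, 10 (4.44%) had one. The cut-off flags about 1 in 20 groups of normally distributed values. That rate need not hold for shares built on 0 or few UMIs, so it gives no measure of chance here. The TRAJ38 share of Il2° replicate 1 was 0.565% beside 0.378% to 0.391% in the other 3 Il2° mice, and the charged residues at its TRAJ38 joints were 3.61% beside 18.8% to 19.7%. TRAV14-1 took 16.5% of TRAJ39 in Il2° replicate 1 beside 4.40% to 6.04%. TRAV6-6 took 25.5% of TRAJ45 in wt replicate 3 beside 0 to 3.80%. The mean CDR3 length of TRAJ43 in Il2° replicate 4, the shallowest library, was 10.9 residues beside 11.7 in the others. The remaining cases have 0 or few UMIs in the other mice. They are TRAV4D-3 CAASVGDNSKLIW with TRAJ38 at 0.0579% in Il15° replicate 1, TRAV7-2 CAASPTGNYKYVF with TRAJ40 at 0.00561% in Il15° replicate 4, and the TRAV16 to TRAV21 share of TRAJ38 at 2.90% in Il2° replicate 2 and 13.3% in Il15° replicate 2 and of TRAJ39 at 2.47% in wt replicate 1.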

How the results depend on the processing

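No segment, clonotype or CDR3 feature of TRAJ38 to TRAJ45 was called under any alternative run, and DESeq2 called 1 combination for Il15° against wt. The combined share for Il2° against wt, 0.174 percentage points, was -0.28 with each clonotype counted once, and for Il15° against Il2° -0.58 became -0.80 without the most abundant clonotype and -0.06 with each clonotype counted once. Leaving out 1 mouse gave 0.0457 to 0.359 for Il2° against wt, -0.53 to -0.26 for Il15° against wt and -0.77 to -0.45 for Il15° against Il2°. Of 288 alternative log2 fold changes of the 6 segments, 23 turned their sign and none was called. With each clonotype counted once these were, for Il2° against wt, -0.031 in TRAJ40, -0.0185 in TRAJ42, -0.0201 in TRAJ43 and 0.0668 in TRAJ45, for Il15° against wt 0.00145 in TRAJ43 and 0.0282 in TRAJ45, and for Il15° against Il2° 0.0132 in TRAJ42 and 0.0216 in TRAJ43. TRAJ45 in Il2° against wt also turned with TMM (0.00543), DESeq2 (0.0274), out-of-frame sequences included (0.00504) and the Mann-Whitney test on shares (0.0249). Leaving out 1 mouse gave ranges across 0 for Il2° against wt in TRAJ38 (-0.0127 to 0.332), TRAJ39 (-0.0982 to 0.0184), TRAJ40 (-0.069 to 0.122) and TRAJ45 (-0.227 to 0.274), for Il15° against wt in TRAJ42 (-0.171 to 0.0239) and TRAJ45 (-0.36 to 0.0277), and for Il15° against Il2° in TRAJ45 (-0.452 to 0.0489).

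The counts over all TRAJ segments, in the order Il2° against wt, Il15° against wt and Il15° against Il2°, were 5, 2 and 4. They became 0, 1 and 0 with each clonotype counted once and 0, 0 and 0 with the exact Mann-Whitney test, and the first became 0 with TMM and 2 with DESeq2. Leaving out 1 mouse gave 0 to 7, 1 to 3 and 1 to 4, the first being 0 without wt replicate 2, 3 or 4 or Il2° replicate 2 or 3. Of all combinations (3, 0 and 11) DESeq2 called 11 and 8 in the first and second comparison, and with TRAV copies kept apart the second and the third gave 7 and 0. Leaving out 1 mouse gave 1 to 6, 0 to 2 and 0 to 14. Of all clonotypes (0, 0 and 1) DESeq2 called 8, 5 and 3, a filter at 1 UMI gave 1 in the first and 3 in the third, merged TRAV copies gave 1 and 2 in these, and plain library sizes gave 0 in the third, where leaving out 1 mouse gave 0 to 1. Of all CDR3 features (0 each) 1 was called in the first at 100 UMIs or more and 2 in the third with each clonotype counted once, and leaving out 1 mouse gave 0 to 1 in the second and 0 to 3 in the third. Same-numbered mice deviated together with correlations from -0.49 to 0.40, over 0.1 in 4 of 12 pairs. Mice were therefore not paired by number in the main tests, and a shared litter or run was not tested. The replicate block gave exact p values of 0.625, 0.25 and 0.125 for the combined share, the last being the smallest possible, 4, 2 and 3 calls of TRAJ segments, and 0 clonotypes for Il15° against Il2°. Segments were not compared with the rest in wt mice alone, where 4 mice cannot go below p = 0.125 in the exact test. The causes of these changes were not tested. TRAJ38 and TRAJ45, with as few as 28 and 17 UMIs in a library, were limited most by depth.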
